A study of Mus musculus with 12 samples.

Results

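This account covers 35 mouse genes of glucose metabolism: carriers of glucose and lactate, the enzymes of glycolysis, regulators of phosphofructokinase, and enzymes of the pentose phosphate pathway and of glycogen. They were chosen by pathway membership, and 31 of the 35 had a value among the 18193 genes measured on the arrays. Gpi1, Eno1 and G6pdx have no probe set that the annotation used here assigns to them alone, and Gapdh is assigned alone only on control probe sets of the array, which are described separately. No filter on dim genes was applied, so all 31 entered every test. The study sorted CD8 T cells from C57bl/c mice aged 6 to 8 weeks and measured each sample on 1 Affymetrix array, 12 in all. Tim-3+ TIL (tumour-infiltrating lymphocytes, n = 4) were PD-1+ Tim-3+ 2B4+ and are called exhausted in the labels. Tim-3- TIL (n = 3) were PD-1+ Tim-3- 2B4- and are called stem-like. TIL of both kinds came from flank tumours of B16F10-GP, a mouse skin melanoma line, taken 17 to 19 days after injection, digested with collagenase and DNase and enriched on a Percoll gradient. The naive CD8 T cells (n = 5) came from spleens of mice for which the labels give no tumour. The labels state no treatment for any group. Tumour digestion is given for TIL alone, so tissue, tumour, digestion and cell state cannot be told apart in a comparison with naive cells. Nothing in the labels says that replicates came from separate mice, and the p-values measure only the spread between these samples, which may be technical.

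Glycolysis breaks glucose down to pyruvate in the cytosol, and lactate dehydrogenase turns pyruvate into lactate, which leaves the cell through monocarboxylate carriers. The pentose phosphate pathway branches off from phosphorylated glucose and supplies NADPH and the ribose of nucleotides, while glycogen is a branched store of glucose that synthase and branching enzyme build and phosphorylase takes apart. Naive T cells take up little glucose, and activated T cells take up much more and release lactate.

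Values are log2 intensities of the probe set with the highest mean among those naming only that gene. They compare groups for 1 gene, not genes with each other. Group levels are means ± SD and log2 differences are ± SE from a limma fit of all 12 arrays. A change was called at a Benjamini-Hochberg adjusted p below 0.05 over all 18193 genes. The values come without detection calls, and a group mean under 5.71, percentile 40 of the tested genes, may lie near background, so that a difference from it can understate the change. Median intensities lay between 58.8 and 63.0 over the arrays, and no 2 arrays were identical. The sort markers stood where the labels put them: Havcr2, which encodes Tim-3, averaged 11.66 ± 0.14 in Tim-3+ TIL, 7.08 ± 0.49 in Tim-3- TIL and 4.63 ± 0.23 in naive cells. Cd244a, which encodes 2B4, averaged 11.49 ± 0.54 in Tim-3+ TIL, 4.89 ± 0.77 in Tim-3- TIL and 4.19 ± 0.30 in naive cells. Pdcd1, which encodes PD-1, averaged 11.77 ± 0.17 in Tim-3+ TIL, 11.37 ± 0.089 in Tim-3- TIL and 5.14 ± 0.31 in naive cells, and the 5 markers of CD8 T cells were well above that percentile in every group. Cd8b1, among them, was lower than in naive cells by 0.70 in Tim-3+ TIL (adjusted p = 2.11e-05) and by 0.76 in Tim-3- TIL (adjusted p = 3.24e-05). Cd8a was not called in any comparison. The arrays were clustered on their deviations from the group means over all 18193 genes and cut into 2 sets that no label names. The sets thus come from the values under test. A fit with the sets as a block removes spread that defined them, so a pass there is no independent support. Set A held Tim-3+ replicates 1 and 2, Tim-3- replicate 1 and naive replicates 1 and 2, and the 7 others formed set B. Differences are therefore also given within the sets, where set A has a lone Tim-3- array that is assumed to vary like the others.

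Promoter sequence is shown for genes that moved furthest over naive cells or in opposite directions, chosen with their values known. RefSeq windows of 300 bases (250 before and 50 after the start of transcription, GRCm38.p6) were found for 34 of the 35 genes, 47 windows in all. Slc2a3 has none in the table used. Capitals mark ACGTG and GCGTG, the core letters that hypoxia-inducible factors are known to bind, or their reverse complements CACGT and CACGC. Both strands were searched. ACGTG is also contained in the E-box CACGTG, a site known for Myc and related factors. Slc16a3 carries ACGTG at 2 positions, Ldha carries both cores and the E-box at 2 positions, and Pygl carries 1 ACGTG and 1 GCGTG. Hk2 carries 2 ACGTG, and Ldhb, whose level was lowest in Tim-3+ TIL, carries 1 GCGTG. Tpi1, among the genes that rose most over naive cells, has neither core and no E-box in its 1 window. Of genes not shown, Slc16a1, which fell between the TIL groups, carries ACGTG at 3 positions, GCGTG at 2 and 1 E-box. An E-box reads as ACGTG on both strands, so its 1 E-box takes up 2 overlapping positions of the 3. A second window of Ldha carries 2 GCGTG and no ACGTG.
Slc16a3, chr11:120948817-120949116, plus strand: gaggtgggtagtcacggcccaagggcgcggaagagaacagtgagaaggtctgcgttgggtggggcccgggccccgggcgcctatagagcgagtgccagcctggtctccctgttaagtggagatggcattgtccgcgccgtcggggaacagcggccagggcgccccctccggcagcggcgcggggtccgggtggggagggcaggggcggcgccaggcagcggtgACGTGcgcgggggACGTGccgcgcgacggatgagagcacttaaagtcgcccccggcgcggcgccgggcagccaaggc
Ldha, chr7:46845554-46845853, plus strand: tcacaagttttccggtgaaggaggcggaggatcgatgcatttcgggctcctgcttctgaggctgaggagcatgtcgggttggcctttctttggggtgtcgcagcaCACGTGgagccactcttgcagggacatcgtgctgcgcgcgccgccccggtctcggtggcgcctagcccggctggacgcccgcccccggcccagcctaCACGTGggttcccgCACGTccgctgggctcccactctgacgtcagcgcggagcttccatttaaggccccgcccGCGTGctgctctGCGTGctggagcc
Pygl, chr12:70227634-70227933, minus strand: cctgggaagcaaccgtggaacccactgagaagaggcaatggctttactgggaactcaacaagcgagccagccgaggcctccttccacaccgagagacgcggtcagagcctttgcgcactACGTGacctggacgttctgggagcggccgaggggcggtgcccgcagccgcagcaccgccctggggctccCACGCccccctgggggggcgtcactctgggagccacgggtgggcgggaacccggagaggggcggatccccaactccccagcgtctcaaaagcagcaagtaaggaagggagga
Hk2, chr6:82774405-82774704, minus strand: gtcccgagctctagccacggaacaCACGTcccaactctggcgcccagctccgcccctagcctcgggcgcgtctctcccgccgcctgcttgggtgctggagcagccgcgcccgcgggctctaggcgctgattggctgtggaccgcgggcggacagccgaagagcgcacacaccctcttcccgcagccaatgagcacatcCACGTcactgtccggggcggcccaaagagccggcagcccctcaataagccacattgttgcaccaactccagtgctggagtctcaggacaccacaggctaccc
Ldhb, chr6:142507908-142508207, minus strand: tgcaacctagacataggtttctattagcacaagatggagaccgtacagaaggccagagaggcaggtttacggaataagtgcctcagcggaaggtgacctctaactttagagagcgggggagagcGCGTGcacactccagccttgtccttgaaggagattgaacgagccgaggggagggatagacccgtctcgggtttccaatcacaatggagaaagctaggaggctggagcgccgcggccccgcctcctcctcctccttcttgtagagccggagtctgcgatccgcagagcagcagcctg
Tpi1, chr6:124814109-124814408, minus strand: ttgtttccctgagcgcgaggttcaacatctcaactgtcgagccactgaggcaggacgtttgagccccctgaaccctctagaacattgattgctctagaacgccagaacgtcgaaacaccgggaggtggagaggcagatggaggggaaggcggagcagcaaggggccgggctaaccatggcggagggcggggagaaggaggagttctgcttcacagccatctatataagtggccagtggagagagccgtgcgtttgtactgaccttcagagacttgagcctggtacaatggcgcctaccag
ACGTG was found in 44.7% of the 47 windows of the 35 genes, against 19.6% of all 32851 windows in the table. GCGTG was found in 59.6% of them, against 32.4% of all windows. The E-box was found in 8.51% of them, against 7.15% of all. The windows also differed in base composition, with a median GC content of 60.7% in these genes and 52.7% in all genes, and the part of this in the motif shares was not tested. Gbe1, which also rose in Tim-3+ TIL, has neither core in its 1 window. A match is a description of the letters and does not show binding.

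Between the tumour-infiltrating populations, much of the pathway stood higher in the exhausted cells. In Tim-3+ against Tim-3- TIL, 15 of the 31 measured genes rose and 2, Slc16a1 and Hk2, fell. Over all tested genes 7.77% were called higher and 5.77% lower. The median log2 difference of the 31 genes was 0.37, beside 0.011 for all genes. Pygl, Slc2a3 and Gbe1 differed most, each by about 3-fold, followed by Slc16a3 at 2.16-fold higher in Tim-3+ TIL. The remaining called differences were all under 2-fold. The arrays measured bulk sorted cells, so fewer cells with a transcript and less of it per cell cannot be told apart.

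In Tim-3- TIL against naive cells, 16 of the 31 genes rose and 1, Gbe1, fell, beside 16.1% of all genes called higher and 18.3% called lower. The largest rises were those of Hk2, Tpi1, Slc16a3 and Aldoc, between 4.00-fold and 8.30-fold. The median log2 difference was 0.28, beside -0.063 for all genes. In Tim-3+ TIL against naive cells, 25 rose and 1, Ldhb, fell, beside 20.1% of all genes called higher and 21.4% called lower. The median here was 0.69, beside -0.065 for all genes. The comparisons share arrays, so their counts are not independent of each other.

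**Figure D1:**
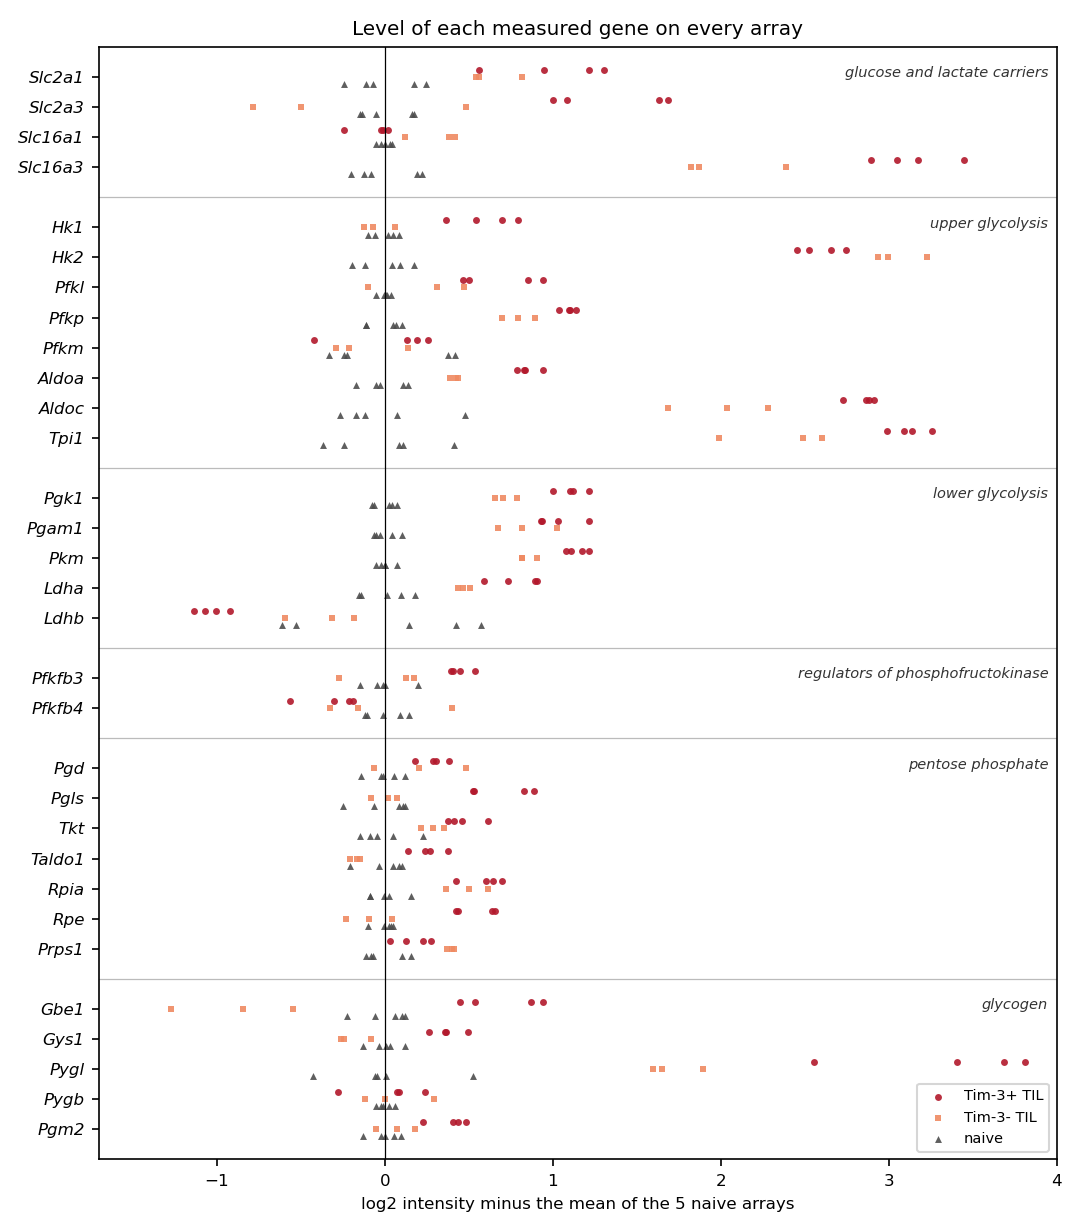
Each point is 1 array: the log2 intensity of a gene minus its mean over the 5 naive arrays (horizontal axis), for the 31 measured genes by pathway step (rows), in Tim-3+ TIL (circles, 4 arrays), Tim-3- TIL (squares, 3 arrays) and naive cells (triangles, 5 arrays). Pygl, Slc16a3, Tpi1, Aldoc and Hk2 lie farthest to the right in TIL, Tim-3- arrays lie left of naive arrays for Gbe1, and Tim-3+ arrays lie left of all others for Ldhb.

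Among the carriers, Slc2a3 and Slc16a3 rose between the TIL populations and Slc16a1 fell. Slc2a3 encodes the glucose transporter GLUT3 (probe set 1437052_s_at). Its log2 intensities were 11.84, 11.79, 11.24 and 11.15 in Tim-3+ TIL, 10.63, 9.37 and 9.65 in Tim-3- TIL and 10.33, 10.32, 10.00, 10.02 and 10.10 in naive cells. All Tim-3+ arrays lay above every other array, while the Tim-3- arrays straddled the naive ones, with replicate 1 above them all and replicates 2 and 3 below them all. Slc2a3 differed by 1.62 ± 0.26 (adjusted p = 0.000691) between Tim-3+ and Tim-3- TIL, a level 3.07-fold higher in Tim-3+ TIL, and by 1.35 ± 0.22 (adjusted p = 0.000208) between Tim-3+ TIL and naive cells. Between Tim-3- TIL and naive cells the difference was -0.27 ± 0.24 (adjusted p = 0.443). Set A gave 0.31 and set B -0.53, and without Tim-3- replicate 1 the adjusted p was 0.0202. The 4 probe sets of Slc2a3 all rose in Tim-3+ TIL over Tim-3- TIL. They disagreed in Tim-3- TIL against naive cells. There 1 was called lower in the limma fit of every probe set, at -0.53 (adjusted p = 0.00537), and another was at 0.14 (adjusted p = 0.520).

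Slc2a1, the glucose transporter GLUT1, was higher in TIL of both kinds than in naive cells and was not called between them. Its log2 intensities were 12.03, 11.95, 11.29 and 11.67 in Tim-3+ TIL, 11.54, 11.29 and 11.27 in Tim-3- TIL and 10.90, 10.97, 10.66, 10.49 and 10.62 in naive cells. Every TIL array lay above every naive array, and the TIL groups overlapped. The differences from naive cells were 1.01 ± 0.15 (adjusted p = 8.85e-05) for Tim-3+ TIL and 0.64 ± 0.17 (adjusted p = 0.00775) for Tim-3- TIL. Between the TIL groups the difference was 0.37 ± 0.17 (adjusted p = 0.214), which passed without Tim-3+ replicate 3 (adjusted p = 0.0426).

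Slc16a3 encodes MCT4, the lactate carrier of cells with high glycolysis (probe set 1449005_at). Its levels were 9.22, 9.07, 9.35 and 9.63 in Tim-3+ TIL, 8.04, 8.00 and 8.56 in Tim-3- TIL and 6.09, 6.36, 6.39, 5.97 and 6.05 in naive cells. The groups formed 3 steps with no overlap, naive cells lowest and Tim-3+ TIL highest. Tim-3+ TIL differed by 1.11 ± 0.17 (adjusted p = 0.000489) from Tim-3- TIL and by 3.14 ± 0.15 (adjusted p = 5.56e-10) from naive cells, 8.82-fold higher. Tim-3- TIL differed by 2.03 ± 0.16 (adjusted p = 2.86e-07) from naive cells. Slc16a1, which encodes MCT1, a carrier that moves lactate in or out, went the other way between the TIL groups. Its levels were 10.16, 9.93, 10.17 and 10.20 in Tim-3+ TIL, 10.30, 10.56 and 10.60 in Tim-3- TIL and 10.13, 10.21, 10.16, 10.22 and 10.18 in naive cells. The Tim-3- arrays were the high ones, and Tim-3+ and naive arrays overlapped. Slc16a1 differed by -0.37 ± 0.10 (adjusted p = 0.0288) between Tim-3+ and Tim-3- TIL and by 0.31 ± 0.099 (adjusted p = 0.0276) between Tim-3- TIL and naive cells. Its fall between the TIL groups missed the threshold when Tim-3+ replicate 2 was left out (adjusted p = 0.0832), and likewise for Tim-3- replicate 2 (0.120) and Tim-3- replicate 3 (0.127). Its rise over naive cells missed the threshold when Tim-3- replicate 2 (0.109), Tim-3- replicate 3 (0.133) or naive replicate 1 (0.0532) was left out. A dimmer probe set of Slc16a1 was higher in Tim-3+ TIL than in naive cells by 1.11, so the probe sets disagreed there.

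In upper glycolysis the hexokinases, which trap glucose in the cell by phosphorylating it, went opposite ways between the TIL groups. Hk2, the inducible hexokinase (probe set 1422612_at), had levels of 9.52, 9.30, 9.23 and 9.43 in Tim-3+ TIL, 10.00, 9.71 and 9.77 in Tim-3- TIL and 6.58, 6.82, 6.95, 6.86 and 6.65 in naive cells. Every TIL array lay far above every naive array, and the Tim-3- arrays lay above the Tim-3+ arrays. Hk2 was 8.30-fold higher in Tim-3- TIL than in naive cells (3.05 ± 0.12 (SE, adjusted p = 1.82e-10)) and 6.04-fold higher in Tim-3+ TIL than in naive cells (2.60 ± 0.11 (SE, adjusted p = 1.31e-10)). Between the TIL groups it differed by -0.46 ± 0.12 (adjusted p = 0.0215). That fall did not pass when Tim-3+ replicate 2 was left out (adjusted p = 0.0558), nor when Tim-3+ replicate 3 (0.0569) or Tim-3- replicate 1 (0.0838) was. Hk1, the hexokinase that most cells express, had levels of 9.91, 9.81, 9.47 and 9.66 in Tim-3+ TIL, 8.99, 9.04 and 9.17 in Tim-3- TIL and 9.20, 9.13, 9.06, 9.16 and 9.01 in naive cells. Here the Tim-3+ arrays stood above all others, while Tim-3- and naive arrays overlapped. Hk1 differed by 0.65 ± 0.11 (adjusted p = 0.00154) between Tim-3+ and Tim-3- TIL and by 0.60 ± 0.100 (adjusted p = 0.000203) between Tim-3+ TIL and naive cells. The other probe set of Hk1 was not called between the TIL groups, at 0.41 (adjusted p = 0.0850), but was called in Tim-3+ TIL against naive cells, at 0.46 (adjusted p = 0.00911).

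Phosphofructokinase commits sugar to glycolysis and is built from Pfkl, Pfkp and Pfkm subunits. None of the 3 was called between the TIL groups, but Pfkl and Pfkp passed with the array sets as a block. Pfkp, the platelet-type subunit, lay between 11.61 and 11.71 in Tim-3+ TIL, between 11.27 and 11.47 in Tim-3- TIL and between 10.46 and 10.68 in naive cells, and it was higher than in naive cells by 1.09 ± 0.084 (adjusted p = 1.08e-07) in Tim-3+ TIL and by 0.80 ± 0.092 (adjusted p = 1.09e-05) in Tim-3- TIL. The TIL groups did not overlap for Pfkp, yet their difference of 0.30 ± 0.096 (adjusted p = 0.0569) missed the threshold, which it passed with the array sets as a block (adjusted p = 0.0326). Pfkl, the liver-type subunit, lay between 9.20 and 9.68 in Tim-3+ TIL, between 8.63 and 9.20 in Tim-3- TIL and between 8.68 and 8.77 in naive cells. It was called in Tim-3+ TIL against naive cells, at 0.69 ± 0.13 (adjusted p = 0.000558). Its difference between the TIL groups was 0.46 ± 0.15 (adjusted p = 0.0533) and passed without Tim-3+ replicate 3 (adjusted p = 0.0357), Tim-3+ replicate 4 (0.0455) or Tim-3- replicate 1 (0.0248), and with the array sets as a block (0.0258). For Tim-3- TIL against naive cells, Pfkl passed without Tim-3- replicate 2 (0.0498). Pfkl and Pfkp each had a probe set with the opposite sign between the TIL groups. Pfkm, the muscle-type subunit, lay between 6.81 and 7.49 in Tim-3+ TIL, between 6.95 and 7.38 in Tim-3- TIL and between 6.91 and 7.66 in naive cells, with all groups overlapping and differences between -0.12 and 0.16.

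Aldolase splits fructose bisphosphate, and triosephosphate isomerase, encoded by Tpi1, interconverts its products. Aldoc, an aldolase best known from brain (probe set 1451461_a_at), had levels of 8.27, 8.40, 8.45 and 8.42 in Tim-3+ TIL, 7.57, 7.22 and 7.81 in Tim-3- TIL and 5.42, 5.27, 6.01, 5.37 and 5.61 in naive cells. The 3 groups did not overlap, and the naive mean lay under the dim level of 5.71. Tim-3+ TIL differed by 0.85 ± 0.17 (adjusted p = 0.00440) from Tim-3- TIL and by 2.85 ± 0.15 (adjusted p = 2.02e-09) from naive cells, and Tim-3- TIL by 2.00 ± 0.16 (adjusted p = 4.10e-07) from naive cells. A dimmer probe set of Aldoc was not called between the TIL groups, at 0.79 (adjusted p = 0.0979). Over naive cells it was called in both, at 1.75 in Tim-3+ TIL and 0.96 in Tim-3- TIL. Aldoa, the aldolase of most tissues, also rose at each step without overlap, by 0.43 ± 0.099 (adjusted p = 0.00927) in Tim-3+ over Tim-3- TIL and by 0.42 ± 0.095 (adjusted p = 0.00338) in Tim-3- TIL over naive cells. Tpi1 (probe set 1435659_a_at) had levels of 11.91, 11.65, 11.80 and 11.75 in Tim-3+ TIL, 11.26, 10.65 and 11.15 in Tim-3- TIL and 8.29, 8.42, 8.77, 8.74 and 9.07 in naive cells. The 3 groups did not overlap. Tpi1 was 8.69-fold higher in Tim-3+ TIL than in naive cells (3.12 ± 0.16 (SE, adjusted p = 1.48e-09)) and 5.14-fold higher in Tim-3- TIL than in naive cells (2.36 ± 0.18 (SE, adjusted p = 1.45e-07)). Between the TIL groups Tpi1 differed by 0.76 ± 0.18 (adjusted p = 0.0130), which did not pass once Tim-3- replicate 2, its lowest TIL array, was left out (adjusted p = 0.0791). All 3 probe sets of Tpi1 rose in Tim-3+ TIL over Tim-3- TIL.

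**Figure D2:**
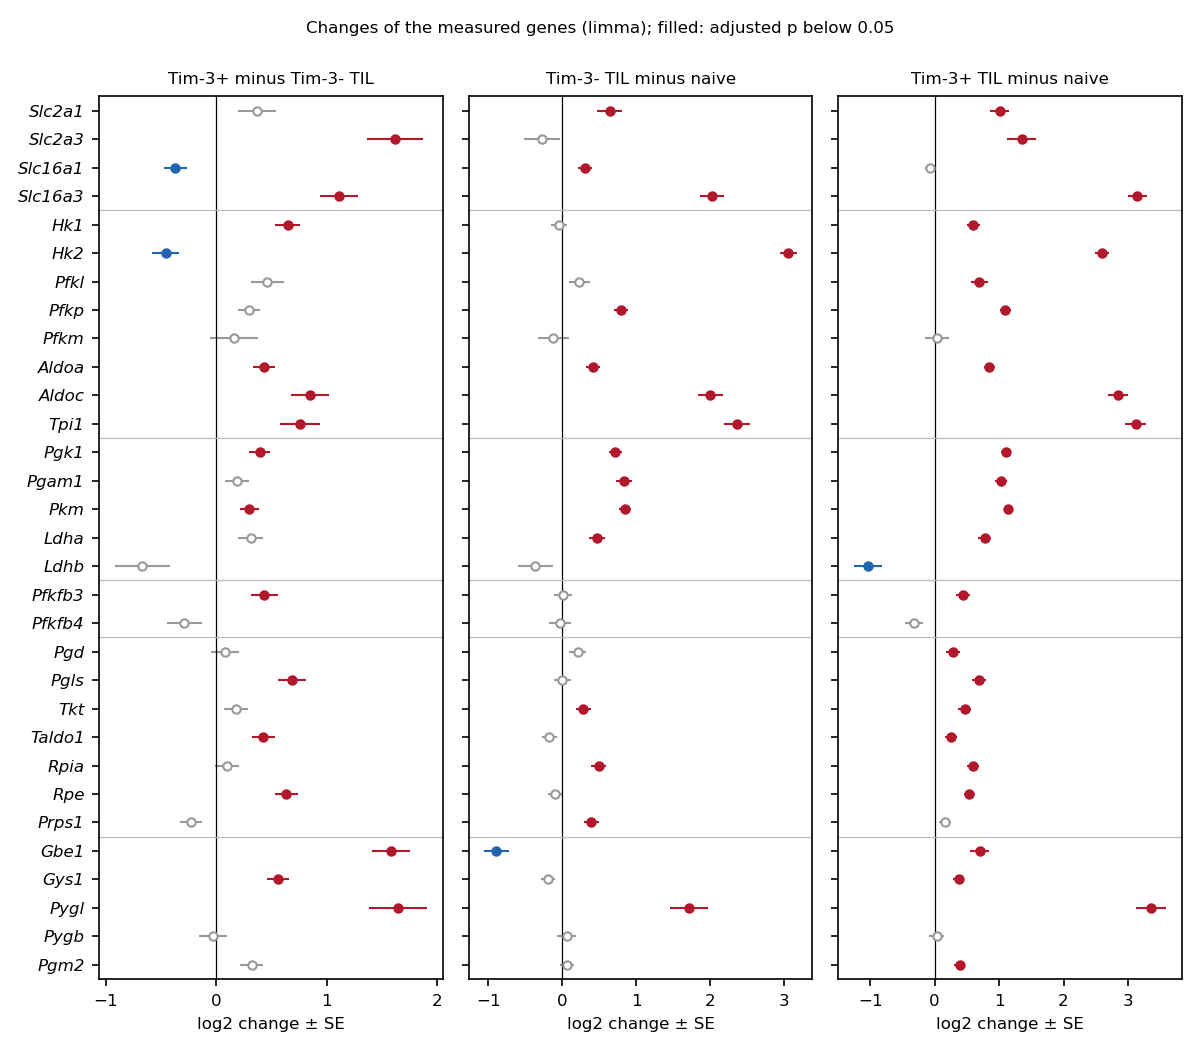
Log2 change ± SE (horizontal axes) of the 31 measured genes (rows, by pathway step) for Tim-3+ minus Tim-3- TIL (left), Tim-3- TIL minus naive cells (middle) and Tim-3+ TIL minus naive cells (right), from the limma fit. Filled points passed an adjusted p of 0.05, red for higher and blue for lower, and the right panel has 25 red points and 1 blue point.

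In lower glycolysis Pgk1 and Pkm, the kinases that yield ATP, rose at each step. Pgk1 lay between 12.36 and 12.58 in Tim-3+ TIL, between 12.02 and 12.15 in Tim-3- TIL and between 11.29 and 11.43 in naive cells, and the 3 groups did not overlap. It differed by 0.39 ± 0.092 (adjusted p = 0.0108) between Tim-3+ and Tim-3- TIL and by 0.72 ± 0.088 (adjusted p = 2.00e-05) between Tim-3- TIL and naive cells. Without Tim-3- replicate 2 the adjusted p between the TIL groups was 0.0563. The other 2 probe sets of Pgk1 were at 0.27 (adjusted p = 0.536) and 0.23 (adjusted p = 0.283) between the TIL groups, and the mean of all 3 missed the threshold (adjusted p = 0.0934). Pkm, pyruvate kinase, lay between 12.00 and 12.13 in Tim-3+ TIL, between 11.73 and 11.82 in Tim-3- TIL and between 10.86 and 10.99 in naive cells, again without overlap. It differed by 1.14 ± 0.076 (adjusted p = 2.12e-08) between Tim-3+ TIL and naive cells and by 0.30 ± 0.086 (adjusted p = 0.0336) between the TIL groups. The Pkm call between the TIL groups was lost in 6 of the 12 fits that left out 1 array: those without Tim-3+ replicate 1, 3 or 4, and those without Tim-3- replicate 1, 2 or 3. Over the 12 fits its adjusted p ran from 0.0367 to 0.119. Pgam1, the phosphoglycerate mutase, was 2.04-fold higher in Tim-3+ TIL than in naive cells (1.03 ± 0.097 (SE, adjusted p = 9.26e-07)) and was not called between the TIL groups (0.19 ± 0.11 (SE, adjusted p = 0.336)).

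Lactate dehydrogenase is assembled from A and B subunits, encoded by Ldha and Ldhb, whose levels moved apart in Tim-3+ TIL against naive cells. Ldha had levels of 12.95, 12.81, 13.13 and 13.12 in Tim-3+ TIL, 12.69, 12.66 and 12.73 in Tim-3- TIL and 12.07, 12.08, 12.40, 12.24 and 12.32 in naive cells. Every Tim-3+ array lay above every Tim-3- array, and these above the naive arrays. Ldha differed by 0.78 ± 0.10 (adjusted p = 2.02e-05) between Tim-3+ TIL and naive cells and by 0.47 ± 0.11 (adjusted p = 0.00400) between Tim-3- TIL and naive cells, but its difference of 0.31 ± 0.11 (adjusted p = 0.0985) between the TIL groups did not pass. It passed with the array sets as a block (adjusted p = 0.0156), in set B alone (0.0386) and with robust moderation (0.0373). Ldhb (probe set 1416183_a_at) had levels of 8.19, 8.12, 8.34 and 8.25 in Tim-3+ TIL, 8.66, 8.94 and 9.07 in Tim-3- TIL and 8.65, 8.73, 9.83, 9.40 and 9.68 in naive cells. All Tim-3+ arrays were below every other array, and the naive arrays were split, with 8.65 and 8.73 in set A and 9.40 to 9.83 in set B. Ldhb was 2.05-fold lower in Tim-3+ TIL than in naive cells (-1.03 ± 0.22 (SE, adjusted p = 0.00153)), and this difference was -0.53 (set A) and -1.34 (set B). Its difference between the TIL groups was -0.67 ± 0.25 (adjusted p = 0.103). Blocking on array set brought it past the threshold, at an adjusted p of 0.0309. All 3 further probe sets of Ldhb had the same sign between the TIL groups, at -0.93 (adjusted p = 0.00623), -0.83 (adjusted p = 0.0294) and -0.76 (adjusted p = 0.0570), and the mean of the 4 passed (adjusted p = 0.0182).

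Gapdh, the dehydrogenase of mid-glycolysis, could be read only from 3 control probe sets, which lie toward the 3′ end, in the middle and toward the 5′ end of the transcript. The 3′ probe set averaged 13.67 ± 0.11 in Tim-3+ TIL, 13.64 ± 0.076 in Tim-3- TIL and 13.00 ± 0.17 in naive cells. The middle probe set averaged 12.91 ± 0.11 in Tim-3+ TIL, 12.40 ± 0.16 in Tim-3- TIL and 11.42 ± 0.19 in naive cells. The 5′ probe set averaged 12.23 ± 0.33 in Tim-3+ TIL, 11.61 ± 0.23 in Tim-3- TIL and 10.61 ± 0.32 in naive cells. All 3 probe sets were therefore higher in TIL than in naive cells, and the size of the difference from naive cells ran from 0.67 at the 3′ end to 1.62 at the 5′ end for Tim-3+ TIL. The Gapdh probe sets disagreed between the TIL groups, at 0.032 (adjusted p = 0.922) for the 3′ one, 0.51 (adjusted p = 0.0226) for the middle one and 0.61 (adjusted p = 0.0841) for the 5′ one. The 3′ minus 5′ difference of Gapdh, which also reads RNA integrity and amplification, was 1.45 ± 0.44 in Tim-3+ TIL, 2.03 ± 0.28 in Tim-3- TIL and 2.39 ± 0.48 in naive cells. Averaged over 5 control transcripts it was 0.13 ± 0.18 in Tim-3+ TIL, 0.23 ± 0.091 in Tim-3- TIL and 0.22 ± 0.15 in naive cells. That mean joins controls of opposite sign (transferrin receptor -1.11 ± 0.25 in Tim-3+ TIL). In set A against set B, Gapdh was at 1.06 and 1.08 against 1.84 and 1.81 in Tim-3+ TIL. It was at 1.79 against 2.34 and 1.96 in Tim-3- TIL, and at 1.90 and 1.91 against 2.52 to 2.97 in naive cells. For 18S RNA and the transferrin receptor all set A arrays lay below all set B arrays, but not for beta-actin and pyruvate carboxylase. The part of this measure in the results for other genes was not tested.

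Pfkfb3 and Pfkfb4 make and remove the fructose bisphosphate that activates phosphofructokinase. Pfkfb3 had levels of 8.07, 8.08, 8.12 and 8.21 in Tim-3+ TIL, against 7.40, 7.80 and 7.85 in Tim-3- TIL, and the naive arrays lay between 7.53 and 7.87. The Tim-3+ arrays were the highest, and Tim-3- arrays overlapped naive ones. Pfkfb3 differed by 0.45 ± 0.11 (adjusted p = 0.00375) between Tim-3+ TIL and naive cells and by 0.44 ± 0.12 (adjusted p = 0.0286) between the TIL groups. Its rise between the TIL groups missed the threshold when Tim-3+ replicate 2 was left out (adjusted p = 0.0506), and likewise for Tim-3+ replicate 3 (0.0548), Tim-3+ replicate 4 (0.0733) and Tim-3- replicate 1 (0.114). Another probe set of Pfkfb3 was not called between the TIL groups, at 0.45 (adjusted p = 0.0743). Unlike the one used, it was called in Tim-3- TIL over naive cells, at 0.40 (adjusted p = 0.0422). Pfkfb4 lay close to the dim level of 5.71, with means of 5.66 ± 0.17 in Tim-3+ TIL, 5.95 ± 0.38 in Tim-3- TIL and 5.98 ± 0.12 in naive cells, and no comparison called it. Its difference between Tim-3+ TIL and naive cells, -0.32 ± 0.14 (adjusted p = 0.0858), passed without Tim-3- replicate 1 (adjusted p = 0.0234) and with the array sets as a block (0.0429).

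In the pentose phosphate pathway 3 of 7 measured genes rose in Tim-3+ over Tim-3- TIL and none fell, beside 7.77% of all genes called higher and 5.77% lower. Pgls, the lactonase of the oxidative branch, had levels of 9.54, 9.60, 9.25 and 9.24 in Tim-3+ TIL, 8.74, 8.63 and 8.79 in Tim-3- TIL and 8.82, 8.83, 8.80, 8.46 and 8.65 in naive cells. Rpe, the epimerase of the sugar phosphates, had levels of 10.02, 10.04, 9.81 and 9.82 in Tim-3+ TIL, 9.15, 9.29 and 9.42 in Tim-3- TIL and 9.42, 9.38, 9.40, 9.43 and 9.28 in naive cells. For Pgls and Rpe the Tim-3+ arrays lay above all others, and Tim-3- and naive arrays overlapped. Pgls differed by 0.69 ± 0.13 (adjusted p = 0.00217) and Rpe by 0.63 ± 0.10 (adjusted p = 0.000875) between the TIL groups. A dim further probe set of Rpe was not called between the TIL groups, and in Tim-3+ TIL against naive cells it had the opposite sign, at -0.11. Taldo1, transaldolase of the branch that returns sugars to glycolysis, averaged 9.40 ± 0.097 in Tim-3+ TIL, 8.98 ± 0.030 in Tim-3- TIL and 9.15 ± 0.13 in naive cells and differed by 0.43 ± 0.10 (adjusted p = 0.0120) between the TIL groups. In Tim-3+ TIL against naive cells Taldo1 differed by 0.26 ± 0.090 (adjusted p = 0.0347). It missed the threshold when Tim-3+ replicate 1, 2 or 3 or naive replicate 4 or 5 was left out, over an adjusted p range of 0.0322 to 0.105 in the 12 fits.

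The other pentose phosphate genes were not called between the TIL groups. Rpia and Tkt rose over naive cells in both TIL groups, Pgd was called in Tim-3+ TIL against naive cells, and Prps1 was called in Tim-3- TIL against naive cells. Rpia, the isomerase that forms ribose phosphate, lay between 9.50 and 9.78 in Tim-3+ TIL, between 9.44 and 9.69 in Tim-3- TIL and between 8.99 and 9.24 in naive cells, and it was higher than in naive cells by 0.59 ± 0.094 (adjusted p = 0.000134) in Tim-3+ TIL and by 0.49 ± 0.10 (adjusted p = 0.00169) in Tim-3- TIL. Prps1, which activates ribose phosphate for nucleotide synthesis, was highest in Tim-3- TIL, between 9.29 and 9.54 in Tim-3+ TIL, between 9.63 and 9.67 in Tim-3- TIL and between 9.15 and 9.42 in naive cells. It was called in Tim-3- TIL against naive cells (0.39 ± 0.098 (SE, adjusted p = 0.00609)), with differences of 0.17 ± 0.090 (adjusted p = 0.165) in Tim-3+ TIL against naive cells and -0.23 ± 0.10 (adjusted p = 0.187) between the TIL groups. Tkt, transketolase, lay between 12.58 and 12.82 in Tim-3+ TIL, between 12.42 and 12.56 in Tim-3- TIL and between 12.06 and 12.43 in naive cells. It differed from naive cells by 0.47 ± 0.096 (adjusted p = 0.00118) in Tim-3+ TIL and by 0.28 ± 0.10 (adjusted p = 0.0485) in Tim-3- TIL, but Tim-3- and naive arrays overlapped. The Tim-3- call was lost in 10 of the 12 fits without 1 array, all but those without Tim-3+ replicate 3 or naive replicate 3 (adjusted p 0.0167 to 0.132). In the fit of every probe set the one used for Tkt missed (adjusted p = 0.0563). The 2 others were called there, at 0.75 (adjusted p = 0.00317) and 0.44 (adjusted p = 0.0125). Pgd, the decarboxylating dehydrogenase of the oxidative branch, was called in Tim-3+ TIL against naive cells at 0.29 ± 0.11 (adjusted p = 0.0487). The Pgd call was lost in 9 of the 12 fits, all but those without Tim-3- replicate 1 or 2 or naive replicate 5 (adjusted p 0.0211 to 0.122). In the fit of every probe set the one used for Pgd missed (adjusted p = 0.0553). The 3 others were called, at 0.51 (adjusted p = 0.00738), 0.34 (adjusted p = 0.0267) and 0.32 (adjusted p = 0.0373). In Tim-3- TIL against naive cells Pgd differed by 0.21 ± 0.12 (adjusted p = 0.208) and passed without Tim-3- replicate 2 (0.0438).

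Genes that build and degrade glycogen held some of the widest gaps between the TIL groups. Gbe1, the branching enzyme (probe set 1420654_a_at), had levels of 8.12, 8.05, 7.72 and 7.63 in Tim-3+ TIL, 6.64, 5.91 and 6.34 in Tim-3- TIL and 7.13, 7.28, 7.24, 6.96 and 7.30 in naive cells. The Tim-3- arrays were the low ones, below every naive array, and the Tim-3+ arrays lay above every naive array. Gbe1 was 3.00-fold higher in Tim-3+ TIL when set against Tim-3- TIL (1.59 ± 0.17 (SE, adjusted p = 2.61e-05)). It was 1.85-fold lower in Tim-3- TIL than in naive cells (-0.89 ± 0.16 (SE, adjusted p = 0.000682)) and 1.62-fold higher in Tim-3+ TIL than in naive cells (0.70 ± 0.15 (SE, adjusted p = 0.00168)). Gys1, the glycogen synthase of most tissues, lay between 6.70 and 6.94 in Tim-3+ TIL, between 6.18 and 6.36 in Tim-3- TIL and between 6.31 and 6.56 in naive cells. It differed by 0.56 ± 0.099 (adjusted p = 0.00157) between the TIL groups and by 0.37 ± 0.087 (adjusted p = 0.00316) between Tim-3+ TIL and naive cells. The other probe set of Gys1 was called in neither comparison, at 0.31 (adjusted p = 0.0751) and 0.20 (adjusted p = 0.0959).

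Phosphorylase releases glucose phosphate from glycogen. Pygl, the liver-type phosphorylase (probe set 1417741_at), had levels of 6.87, 7.72, 8.12 and 8.00 in Tim-3+ TIL, 5.91, 6.21 and 5.96 in Tim-3- TIL and 4.26, 4.32, 4.83, 3.88 and 4.25 in naive cells. The groups formed 3 steps without overlap, and Tim-3+ replicate 1 was the lowest of its group. Pygl was 10.3-fold higher in Tim-3+ TIL than in naive cells (3.36 ± 0.23 (SE, adjusted p = 3.26e-08)), where the naive mean lay under the dim level of 5.71. Between the TIL groups it differed by 1.65 ± 0.26 (adjusted p = 0.000772), and by 1.38 (set A) and 1.97 (set B). Pygb, the brain-type phosphorylase, showed no such pattern: its levels lay between 9.64 and 10.16 in Tim-3+ TIL, between 9.80 and 10.21 in Tim-3- TIL and between 9.87 and 9.98 in naive cells, and its differences ran from -0.029 to 0.060 with all groups overlapping. Pgm2, of the phosphoglucomutase family, was called in Tim-3+ TIL against naive cells (0.39 ± 0.090 (SE, adjusted p = 0.00295)). Between the TIL groups its difference was 0.32 ± 0.10 (adjusted p = 0.0547), which passed without Tim-3+ replicate 4 (adjusted p = 0.0383) and with the array sets as a block (0.0333). Pgm2 has a single probe set, so its value stayed the same in the fit with the mean of all probe sets, where its adjusted p was 0.0360.

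**Figure D3:**
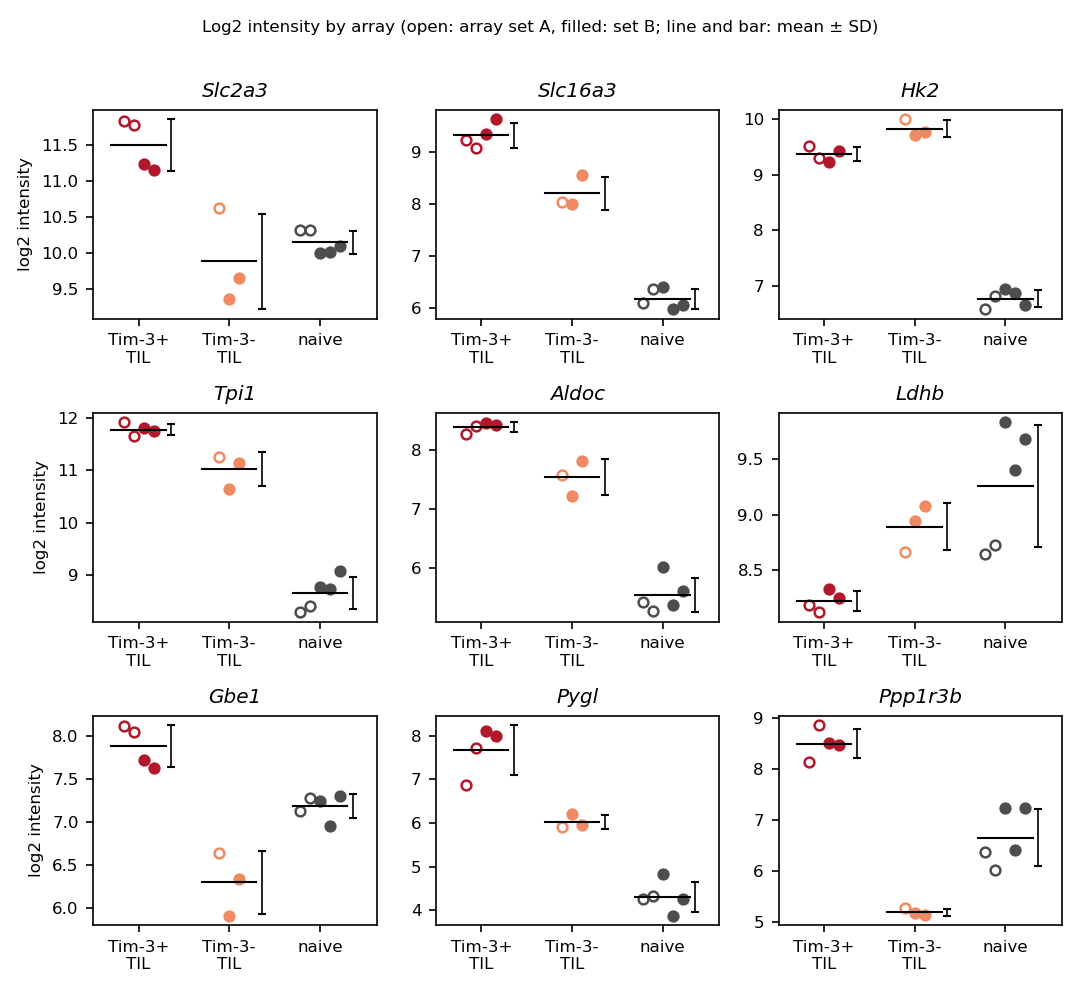
Log2 intensity (vertical axes) on each array for 9 genes in Tim-3+ TIL, Tim-3- TIL and naive cells, with open circles for array set A, filled circles for set B, and a line with a bar for the group mean ± SD. Slc16a3, Tpi1, Aldoc and Pygl form 3 separate steps, Hk2 is highest in Tim-3- TIL, and Gbe1 and Ppp1r3b are lowest in Tim-3- TIL.

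Each array also gives a log2 ratio between genes that serve the same step. The ratio of a gene pair was compared between groups in 8 pairs and 3 comparisons, 24 exact two-sided permutation tests, and none passed after Benjamini-Hochberg adjustment over the 24 (15 had an unadjusted p under 0.05). With 4 against 3 arrays the smallest p is 0.0571, with 3 against 5 it is 0.0357 and with 4 against 5 it is 0.0159. After adjustment over the 24, the comparisons that involve Tim-3- TIL could not pass, so the lack of a pass decides nothing there. Tim-3+ TIL against naive cells could pass only with all 8 pairs at the smallest p. Slc2a3 minus Slc2a1 was above it (exact permutation p = 0.0476). For Ldha minus Ldhb the ratio averaged 4.78 ± 0.075 in Tim-3+ TIL, 3.80 ± 0.20 in Tim-3- TIL and 2.96 ± 0.40 in naive cells, with no overlap between any of the groups (exact permutation p = 0.0571 between the TIL groups and 0.0159 for Tim-3+ TIL against naive cells, adjusted p = 0.0623 and 0.0544). For Hk2 minus Hk1 it averaged -0.34 ± 0.13 in Tim-3+ TIL, 0.76 ± 0.22 in Tim-3- TIL and -2.34 ± 0.18 in naive cells, so that the balance lay farthest toward Hk2 in Tim-3- TIL. For Slc16a3 minus Slc16a1 it averaged -0.80 ± 0.16 in Tim-3+ TIL, -2.28 ± 0.26 in Tim-3- TIL and -4.00 ± 0.20 in naive cells. For Slc2a3 minus Slc2a1 it averaged -0.23 ± 0.20 in Tim-3+ TIL, -1.48 ± 0.52 in Tim-3- TIL and -0.57 ± 0.084 in naive cells, lowest in Tim-3- TIL. For Pygb minus Pygl it averaged 2.28 ± 0.73 in Tim-3+ TIL, 3.95 ± 0.35 in Tim-3- TIL and 5.61 ± 0.32 in naive cells, and for Aldoc minus Aldoa -4.47 ± 0.096 in Tim-3+ TIL, -4.88 ± 0.28 in Tim-3- TIL and -6.47 ± 0.34 in naive cells. Pairs whose groups overlapped were Pfkp minus Pfkl between the TIL groups, Pfkfb4 minus Pfkfb3 between Tim-3- TIL and naive cells, and Slc2a3 minus Slc2a1 between Tim-3+ TIL and naive cells. These ratios show unequal change of the members of a pair and set no level of a probe set against that of another.

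**Figure D4:**
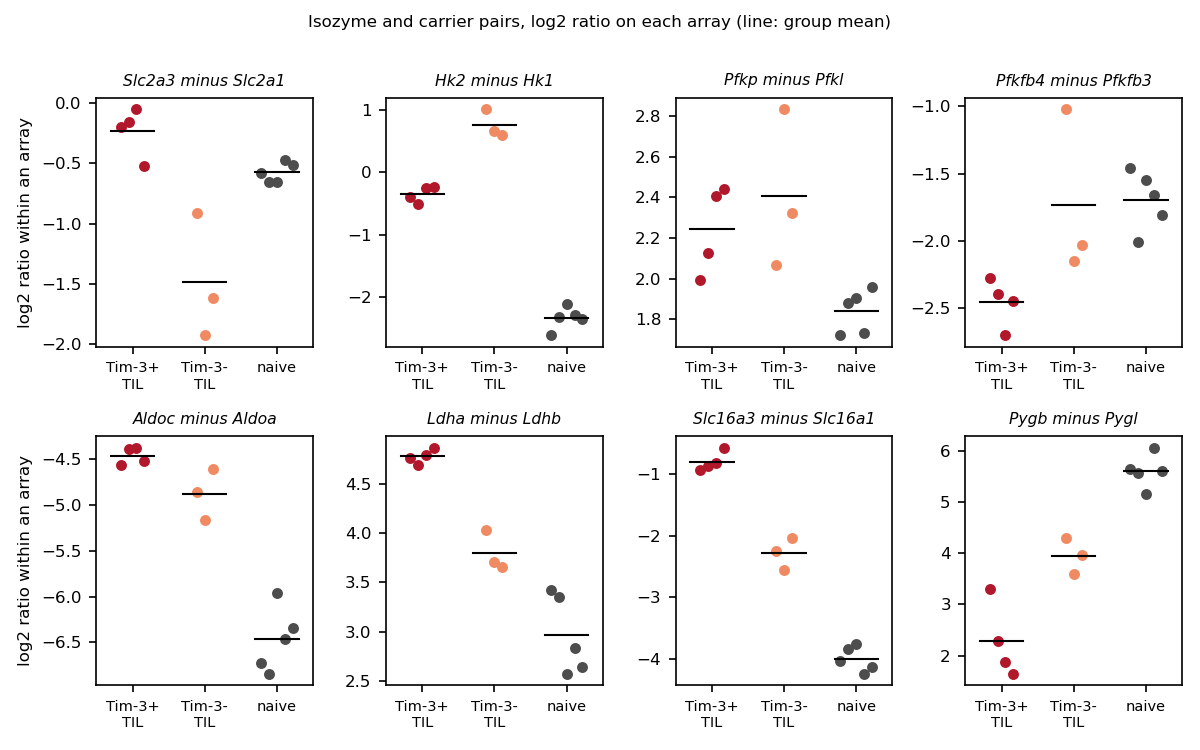
Log2 ratio of 8 gene pairs within each array (vertical axes) in Tim-3+ TIL, Tim-3- TIL and naive cells, with a line at the group mean. Ldha minus Ldhb and Slc16a3 minus Slc16a1 are highest in Tim-3+ TIL, Hk2 minus Hk1 is highest in Tim-3- TIL, and Pygb minus Pygl is highest in naive cells.

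A wider list of pathway genes, not among the 35, was counted beside them, and 86 of its 92 genes were measured. Between Tim-3+ and Tim-3- TIL 8 of the 86 rose and 4 fell, beside 7.77% of all genes called higher and 5.77% lower, so that the list lay near the share over all genes. Its median log2 difference was 0.046. In Tim-3- TIL against naive cells 23 were called higher and 21 lower (16.1% and 18.3% of all genes), and in Tim-3+ TIL against naive cells 29 were called higher and 21 lower (20.1% and 21.4% of all genes), with medians of 0.013 and 0.0046. Ppp1r3b, a subunit that brings a protein phosphatase to glycogen, had levels of 8.14, 8.85, 8.51 and 8.47 in Tim-3+ TIL, 5.27, 5.18 and 5.15 in Tim-3- TIL and 6.38, 6.02, 7.23, 6.42 and 7.23 in naive cells. It was 9.82-fold higher in Tim-3+ TIL when set against Tim-3- TIL (3.30 ± 0.26 (SE, adjusted p = 1.64e-06)) and 2.75-fold lower in Tim-3- TIL than in naive cells (-1.46 ± 0.25 (SE, adjusted p = 0.000411)), an order of groups like that of Gbe1. Its Tim-3- mean lay under the dim level of 5.71. Ugp2, which makes the activated glucose used for glycogen, was 2.78-fold higher in Tim-3+ TIL (1.48 ± 0.11 (SE, adjusted p = 6.43e-08)) and 2.13-fold higher in Tim-3- TIL (1.09 ± 0.12 (SE, adjusted p = 6.11e-06)) than in naive cells. Gpd2, the mitochondrial glycerol phosphate dehydrogenase that takes electrons from cytosolic NADH, differed by 1.36 ± 0.13 (adjusted p = 8.78e-06) between Tim-3+ and Tim-3- TIL and by 1.85 ± 0.12 (adjusted p = 1.07e-08) between Tim-3+ TIL and naive cells.

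Further enolases, a glucose carrier and the dehydrogenase of the endoplasmic reticulum were also called between the TIL groups. Eno3, the muscle-type enolase, differed by 0.96 ± 0.18 (adjusted p = 0.00278), and Eno2, the neuronal type, by -1.66 ± 0.24 (adjusted p = 0.000328), so that Eno2 was 3.16-fold lower in Tim-3+ TIL. The Tim-3+ and naive means of Eno2 lay under the dim level of 5.71. Slc2a6, a member of the glucose transporter family, averaged 6.11 ± 0.071 in Tim-3+ TIL, 7.35 ± 0.38 in Tim-3- TIL and 6.11 ± 0.17 in naive cells, and the Tim-3- arrays were the high ones (-1.23 ± 0.16 (SE, adjusted p = 0.000108) between Tim-3+ and Tim-3- TIL). H6pd, which feeds a pentose phosphate branch in the endoplasmic reticulum, averaged 8.35 ± 0.036 in Tim-3+ TIL, 7.40 ± 0.085 in Tim-3- TIL and 8.51 ± 0.25 in naive cells. It differed by 0.94 ± 0.13 (adjusted p = 0.000268) between Tim-3+ and Tim-3- TIL, and it fell in Tim-3- TIL against naive cells (-1.11 ± 0.13 (SE, adjusted p = 1.04e-05)).

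Pdk1 and Pdk2 encode kinases that shut pyruvate dehydrogenase, and with it the entry of pyruvate into the citric acid cycle, and both fell in TIL against naive cells. Pdk1 differed from naive cells by -2.17 ± 0.084 (adjusted p = 7.97e-11) in Tim-3+ TIL and by -2.30 ± 0.092 (adjusted p = 3.06e-10) in Tim-3- TIL. Pdk2 differed from naive cells by -1.73 ± 0.15 (adjusted p = 4.77e-07) in Tim-3+ TIL and by -1.28 ± 0.17 (adjusted p = 3.46e-05) in Tim-3- TIL. Among regulators, Hif1a encodes an oxygen-regulated factor that drives many glycolysis genes. Its level averaged 11.77 ± 0.17 in Tim-3+ TIL, 12.18 ± 0.099 in Tim-3- TIL and 10.27 ± 0.15 in naive cells. Hif1a rose in Tim-3- TIL over naive cells by 1.90 ± 0.12 (adjusted p = 1.81e-08). Between Tim-3+ and Tim-3- TIL Hif1a differed by -0.41 ± 0.12 (adjusted p = 0.0377), which missed the threshold when Tim-3+ replicate 1 or 2, any Tim-3- replicate, or naive replicate 5 was left out (adjusted p 0.0250 to 0.114 over the 12 fits). Egln3, a hydroxylase that marks hypoxia-inducible factors for removal, was 4.05-fold higher in Tim-3- TIL than in naive cells (2.02 ± 0.23 (SE, adjusted p = 8.78e-06)). Myc, a factor that raises glycolysis genes on activation, fell by 1.88 ± 0.30 in Tim-3+ TIL (adjusted p = 0.000128) and by 1.99 ± 0.32 in Tim-3- TIL (adjusted p = 0.000233) against naive cells. Txnip, which limits glucose uptake, differed from naive cells by -0.70 ± 0.10 (adjusted p = 6.60e-05) in Tim-3+ TIL and by -0.81 ± 0.11 (adjusted p = 5.73e-05) in Tim-3- TIL. Tigar, which diverts sugar to the pentose phosphate pathway, differed by 0.38 ± 0.12 (adjusted p = 0.0191) in Tim-3+ TIL against naive cells, which did not pass once Tim-3+ replicate 4 was left out (adjusted p = 0.0683). Ppp1r3f, another phosphatase subunit of the glycogen family, was 4.66-fold lower in Tim-3- TIL than in naive cells (-2.22 ± 0.23 (SE, adjusted p = 3.61e-06)).

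Markers of other cells were read on the same arrays. Of 7 melanoma genes, 0 were called between the TIL groups by limma, beside 7.77% of all genes called higher and 5.77% lower. An unadjusted limma p under 0.05 was met by 1 of the 7 and by 4437 of all 18193 genes. Yet 6 of the 7 were higher in Tim-3+ TIL (9448 of all genes), with a median log2 difference of 0.61. The spread was wide, with 0.61 ± 0.65 for Tyrp1 and 0.68 ± 0.60 for Dct, so the lack of calls does not show equal levels. In Tim-3- TIL against naive cells 2 of the 7 were called higher and 1 lower (16.1% and 18.3% of all genes). In Tim-3+ TIL against naive cells 5 were called higher and 1 lower (20.1% and 21.4% of all genes). Tyrp1, a pigment enzyme, had levels of 8.29, 4.67, 7.55 and 6.55 in Tim-3+ TIL, 5.52, 5.61 and 7.34 in Tim-3- TIL and 2.94, 3.09, 3.38, 3.09 and 3.03 in naive cells. Tyrp1 was 12.6-fold higher in Tim-3+ TIL and 8.28-fold higher in Tim-3- TIL than in naive cells, and Dct, another pigment enzyme, was 7.56-fold higher in Tim-3+ TIL and 4.74-fold higher in Tim-3- TIL. The naive means of Tyrp1 and Dct lay under the dim level of 5.71. Pmel, a protein of pigment granules, went the other way and was brightest in naive cells (6.81 ± 0.49 in Tim-3+ TIL, 7.17 ± 0.26 in Tim-3- TIL and 8.05 ± 0.30 in naive cells), so that the sum of the list does not show the rise of Tyrp1 and Dct. That summed intensity ranged from 313 to 1211 in Tim-3+ TIL, from 384 to 661 in Tim-3- TIL and from 403 to 561 in naive cells, and none of the 7 was listed at 0.

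Of 8 monocyte and macrophage genes, 1 rose and 1 fell between the TIL groups (7.77% and 5.77% of all genes), and their summed intensity ranged from 366 to 475 in Tim-3+ TIL, from 446 to 540 in Tim-3- TIL and from 277 to 361 in naive cells. Foxp3 and Cd4, the markers of regulatory and CD4 T cells, summed to 289 to 336 in Tim-3+ TIL, 370 to 436 in Tim-3- TIL and 217 to 247 in naive cells. Foxp3 averaged 6.93 ± 0.16 in Tim-3+ TIL, 7.94 ± 0.089 in Tim-3- TIL and 7.09 ± 0.18 in naive cells. It was 2.01-fold lower in Tim-3+ than in Tim-3- TIL (adjusted p = 0.000107) and 1.80-fold higher in Tim-3- TIL than in naive cells (adjusted p = 7.75e-05). Cd4 differed from naive cells by 0.99 ± 0.12 (adjusted p = 8.53e-06) in Tim-3+ TIL and by 0.83 ± 0.13 (adjusted p = 0.000148) in Tim-3- TIL. The 2 measured genes of the NK list summed to 804 to 1089 in Tim-3+ TIL, 1687 to 1836 in Tim-3- TIL and 365 to 464 in naive cells. Eomes, a transcription factor that CD8 T cells also express, made up most of this and differed by -0.97 ± 0.12 (adjusted p = 0.000117) between the TIL groups, while Ncr1, a receptor of NK cells, lay under the dim level of 5.71 in every group. The sums of the B cell list were 102 to 119 in Tim-3+ TIL, 140 to 150 in Tim-3- TIL and 493 to 662 in naive cells, and most of the naive sum was Cd79b (5.59 ± 0.15 in Tim-3+ TIL, 6.37 ± 0.21 in Tim-3- TIL and 8.89 ± 0.15 in naive cells). The sums of the fibroblast and endothelium list were 289 to 343 in Tim-3+ TIL, 484 to 519 in Tim-3- TIL and 964 to 1223 in naive cells, and most of the naive sum was Pecam1 (6.71 ± 0.20 in Tim-3+ TIL, 8.17 ± 0.087 in Tim-3- TIL and 9.77 ± 0.18 in naive cells), while Col1a1, Col3a1 and Pdgfrb were not called in any comparison. The part of such cells in the results was not tested.

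Within the sets of arrays, the 17 genes called between the TIL groups had the same sign in set A and in set B, as did the 17 called in Tim-3- TIL and the 26 called in Tim-3+ TIL against naive cells. The genes were called on these same arrays, so such agreement was likely beforehand and is no replication. The share over all called genes was not counted. With the array sets as a block, 19 genes were called higher and 3 lower between the TIL groups, the added ones being Pfkl, Pfkp, Ldha, Pgm2 and Ldhb. The difference between Tim-3+ and Tim-3- TIL was 1.18 (set A) and 1.69 (set B) for Slc2a3, 1.10 (set A) and 1.21 (set B) for Slc16a3, 1.45 (set A) and 1.55 (set B) for Gbe1 and 0.52 (set A) and 0.87 (set B) for Tpi1. Of the 16 genes with several probe sets, 14 had the same sign on all of them between the TIL groups.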

How the data were processed

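The deposited table holds linear intensities per probe set for 12 Affymetrix arrays. Per the submitters' processing notes, RMA and the affy package were used. No versions are named, and how RMA values returned to a linear scale, or whether the arrays were processed jointly, is not given in the sources used here. Deposited intensities were turned into log2 values. Of 45101 probe sets, 64 are array controls, 34945 name 1 gene in the platform annotation, 932 several and 9160 none. Each of 18193 genes took its brightest probe set naming only that gene. Probe sets ending in _x_at or _s_at, here those of Slc2a3, Aldoa, Pgd and Tkt, can match related transcripts. The number of arrays limits the precision.

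Group means were compared with limma 3.58.1 (R 4.3.3, default empirical Bayes, two-sided, Benjamini-Hochberg over all genes). Ratios of gene pairs were compared with exact permutation tests (Python 3.11.15, scipy 1.17.1). The methods were tested on simulated data. The named genes are all members, the sort markers, up to 6 wider-list genes per comparison by smallest adjusted p, and Hif1a, Myc, Txnip, Tigar and Pdk1. Further genes are marker-list members or were chosen after their values were seen. Members, lists and array sets were chosen with earlier results of these data known. Replicate numbers do not pair the samples: over the 10 same-numbered pairs across groups, deviations correlated between -0.15 and 0.41. Alternatives covered the probe set, scaling, dim-gene filter, weights, moderation, samples fitted, blocks, 2-fold minimum and leaving out each array. Fits of every probe set were added after seeing the data.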

Additional observations from a re-analysis of the deposited data

Results flagged for a closer look

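Of the 62 groups of 4 or 5 arrays looked at for the 31 genes, 1 held an array that stood apart from its group by Dixon's criterion, which chance meets in about 1 of 20 groups. Slc16a1, the MCT1 carrier, stood at 9.933 in Tim-3+ replicate 2, the lowest of its 4 arrays, where the nearest was at 10.158 and the highest at 10.195. Without that array the fall of Slc16a1 in Tim-3+ against Tim-3- TIL had an adjusted p of 0.0832, against 0.0288 with all arrays.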

How the results depend on the processing

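Over all alternatives but the 2-fold minimum, 2094 of 2232 values of the 31 genes kept their call and sign. This count pools the 3 comparisons and includes genes that were never called. Of the 17 genes called between the TIL groups, 11 kept their call in every fit without 1 array. Against naive cells, 15 of 17 did so in Tim-3- TIL and 24 of 26 in Tim-3+ TIL. The same shares over all called genes were not counted. The number of arrays, the lack of detection calls, the choice of probe set and the unlabelled array sets limit the results.
Between Tim-3+ and Tim-3- TIL, 12 to 15 genes were higher and 0 to 2 lower in fits without 1 array, with 1666 to 2447 genes called in all, against 2463 in the full fit. Set A alone gave 8 higher, 0 lower and 1590 of all genes, a 2-fold minimum gave 4, 0 and 775, and the array sets as a block gave 19, 3 and 3348. The number lower was 1 with the probe set of largest variance and with arrays centred on their medians, where Slc16a1 was lost. In Tim-3- TIL against naive cells, 14 to 16 were higher and 1 to 2 lower without 1 array, over 5136 to 6235 of all genes. The 2-fold minimum gave 5 higher, 0 lower and 2183 of all genes, and 2 were lower with the probe set of largest variance and 3 in set B. In Tim-3+ TIL against naive cells, 23 to 25 were higher and 1 to 2 lower without 1 array, over 6858 to 7852 of all genes. The 2-fold minimum gave 11 higher and 2598 of all genes, and 2 were lower in the fit of only the groups compared and with the sets as a block. In Tim-3+ TIL against naive cells Slc16a1, not called in the full fit, was at 1.11 with its probe set of largest variance and at 0.52 with the mean of its probe sets. Rpe was at -0.11 on 1 dim probe set, and Pfkl at -0.088 on a probe set that was not dim. Pfkl, Pfkp and Pgm2 passed between the TIL groups also with median centring, with the dim-gene filter and with array weights. The cause was not tested.
With the replicate block, the counts were 15 higher, 3 lower and 2750 of all genes between the TIL groups, 14 higher, 1 lower and 6415 of all genes in Tim-3- TIL against naive cells and 24 higher, 1 lower and 7681 of all genes in Tim-3+ TIL against naive cells, and the same numbers do not pair the samples.
With the mean of all probe sets, the 8 pair ratios of Tim-3+ TIL against naive cells passed, at 0.33 for Slc2a3 minus Slc2a1, 2.07 for Hk2 minus Hk1, 0.62 for Pfkp minus Pfkl, -0.96 for Pfkfb4 minus Pfkfb3, 1.41 for Aldoc minus Aldoa, 1.83 for Ldha minus Ldhb, 2.62 for Slc16a3 minus Slc16a1 and -3.33 for Pygb minus Pygl. This change turned on Slc2a3 minus Slc2a1, since these tests pass only when all 8 pairs are at the smallest p. Pfkp minus Pfkl was 0.19 between the TIL groups with the probe set of largest variance, and ran from -0.33 to 0.048 without 1 array.
In set A, the ratios that moved by more than the spread were, between the TIL groups, 0.73 for Slc2a3 minus Slc2a1, -1.47 for Hk2 minus Hk1, -1.32 for Pfkfb4 minus Pfkfb3 and 0.70 for Ldha minus Ldhb. In Tim-3- TIL against naive cells they were -0.29 (Slc2a3 minus Slc2a1), 3.48 (Hk2 minus Hk1), 0.27 (Pfkp minus Pfkl), 0.72 (Pfkfb4 minus Pfkfb3), 1.92 (Aldoc minus Aldoa) and -1.31 (Pygb minus Pygl). In Tim-3+ TIL against naive cells they were 2.30 for Aldoc minus Aldoa and 1.34 for Ldha minus Ldhb. In set B they were -0.87 for Hk2 minus Hk1 and 1.15 for Ldha minus Ldhb between the TIL groups, -1.23 for Slc2a3 minus Slc2a1 and 2.89 for Hk2 minus Hk1 in Tim-3- TIL against naive cells, and 2.15 for Ldha minus Ldhb in Tim-3+ TIL against naive cells.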

Other observations

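In 2 branches of the wider list, calls were counted beside the 7.77% of all genes called higher and 5.77% lower between Tim-3+ and Tim-3- TIL. Of 25 glycogen and hexosamine genes, 1, Ppp1r3b, rose and 0 fell between Tim-3+ and Tim-3- TIL by limma. In Tim-3+ TIL against naive cells 10 of the 25 were called higher and 5 lower, beside 20.1% and 21.4% of all genes. Of 12 genes of pyruvate entry, 0 were called between the TIL groups by limma. An unadjusted limma p under 0.05 was met by 6 of the 12, beside 4437 of all 18193 genes. Bsg, the membrane partner of the MCT1 and MCT4 lactate carriers, was chosen after its values were seen. It averaged 11.09 ± 0.064 in Tim-3+ TIL, 10.75 ± 0.14 in Tim-3- TIL and 10.20 ± 0.046 in naive cells, and the differences were 0.35 ± 0.095 (adjusted p = 0.0261) between Tim-3+ and Tim-3- TIL and 0.89 ± 0.083 (adjusted p = 8.23e-07) between Tim-3+ TIL and naive cells.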
